A study of Mus musculus with 19 samples.

Results

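The expression of 10 genes of the p53 pathway was measured by RNA sequencing in fetal mouse livers and in mouse tumours that model fibrolamellar carcinoma. This liver cancer carries a fusion gene, DNAJB1-PRKACA, which joins a chaperone to the catalytic part of protein kinase A (PKA). The members of the set were Cdkn1a, Cdkn2a, Trp53, Mdm2, Ccng1, Bax, Phlda3, Eda2r, Trp53inp1 and Bbc3. They were matched by symbol. The embryo table of 13549 genes held 8 of them, and Cdkn2a and Eda2r were not analysed there. The tumour files of 17606 genes held all 10.

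Livers came from embryos at day 18.5 of gestation. In the 4 fusion livers a DNAJB1-PRKACA cDNA joined to a GFP reporter, set behind a stop cassette at Rosa26, was switched on by Cre recombinase driven by the albumin promoter. The promoter largely limits the switch to cells of the hepatocyte lineage, so other liver cells were not direct targets. The 5 control livers are labelled control, and the alleles they carried are not given in the sources used here. The tumours all grew from 1 mouse cell line, FL8, which was embedded in gelatin and implanted subcutaneously in NSG mice. NSG hosts lack T, B and natural killer cells but keep macrophages, vessels and connective tissue of their own. Dosing began at a mean tumour size of 75 mm3. There were 5 vehicle tumours (0.5% methocel by mouth) and 5 palbociclib tumours (75 mg/kg by mouth on 3 days, then 4 days without drug). The series text names a saline buffer for these controls instead. The day of collection is not given, and nothing says that each tumour came from its own mouse, so tumour p-values measure only the spread between these samples.

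The p53 protein, encoded by Trp53, is a transcription factor that is kept low by the ubiquitin ligase MDM2 and is stabilised when DNA is damaged or an oncogene is active. It then switches on its targets, among them Mdm2 itself, the arrest gene Cdkn1a, whose product p21 blocks cyclin-dependent kinases (CDKs), and death genes such as Bax and Bbc3. Cdkn2a encodes p16, a direct inhibitor of CDK4 and CDK6, and ARF, an inhibitor of MDM2. Palbociclib also inhibits CDK4 and CDK6. Lasting arrest, called senescence, is known for raised Cdkn1a and Cdkn2a, loss of the lamin gene Lmnb1, low proliferation genes and secretion of cytokines and proteases. Because p53 activity is set largely by protein stability, the level of Trp53 mRNA is not itself a readout of it.

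The p53 protein binds pairs of a decamer made of purines, a central C, A or T bases, G and pyrimidines. The promoters are shown because 5 of the 9 genes with an entry in the RefSeq promoter table hold at least 1 copy of this decamer, the same on both strands, in the 250 bases before a start. The other entries were those of Cdkn2a, Phlda3, Eda2r and Bbc3, and Trp53inp1 is named only. Of the 32851 windows of that length in the table, 7.13% held the decamer, and 5 of 13 windows of the members did. Each line gives 60 bases in the direction of transcription (build GRCm38.p6), with the decamer in capitals.
Cdkn1a, chr17:29090892-29090951, plus strand: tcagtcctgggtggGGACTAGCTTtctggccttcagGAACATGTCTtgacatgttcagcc
Mdm2, chr10:117710910-117710969, minus strand: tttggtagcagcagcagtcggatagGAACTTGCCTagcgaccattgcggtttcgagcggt
Ccng1, chr11:40755437-40755496, minus strand: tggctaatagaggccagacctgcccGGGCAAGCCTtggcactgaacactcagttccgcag
Trp53, chr11:69580259-69580318, plus strand: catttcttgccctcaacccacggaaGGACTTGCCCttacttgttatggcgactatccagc
Bax, chr7:45467065-45467124, minus strand: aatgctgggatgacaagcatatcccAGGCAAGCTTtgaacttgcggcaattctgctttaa
Cdkn1a held 2 copies, starting 73 and 51 bases before its start, and the other 4 genes held 1 each. That copy began 75 bases before the start in Trp53, 185 in Ccng1, 186 in Mdm2 and 201 in Bax. The cAMP response element bound by CREB, a substrate of PKA, has the core TGACGTCA. It was in none of the 13 windows of these genes and in 1.55% of all windows. Its shorter form TGACG, which is part of that core, was in the window of Bbc3 alone among the members and in 17.8% of all windows. A match is a description of the letters and not a site shown to be bound.

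Library depth ranged from 7.66 to 23.1 M counts (M, 1000000) in control livers, 13.5 to 45.6 M in fusion livers, 2.96 to 33.9 M reads in vehicle tumours and 24.9 to 43.1 M in palbociclib tumours. Prkaca, which the transgene contains, ranged from 36.3 to 50.5 CPM (counts scaled to a total of 1000000) in control and 52.0 to 114 CPM in fusion livers, without overlap. Alb was high in every liver and tumour, at 16348 CPM or more. The summed share of ribosomal protein genes was 9.84% to 10.3% in 4 livers (controls 1 and 2, fusion 8 and 9) but 6.30% to 8.0% in the remaining 5, here named high and low ribosomal share. Vehicle 1 had 46.6% mitochondrial reads against 1.24% to 6.47% in the other tumours and the highest macrophage marker sum, at 1777 CPM. Vehicle 5 was the shallowest library, at 2.96 M reads. The summed markers of each of 8 cell types overlapped between the groups in both experiments. Those of haematopoietic cells did so in the tumours only through vehicle 5, at 1030 CPM, while vehicle 1 to 4 lay at 6451 to 49034 CPM and the palbociclib tumours at 1062 to 5503 CPM. In bulk samples such as these, fewer cells of a type and less RNA per cell cannot be told apart.

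The first comparison asks which of these genes change in the fetal liver that expresses the fusion. Cdkn1a was the only one of the 8 tested genes past the threshold, an edgeR adjusted p under 0.05, and it fell. The p53 targets Mdm2, Ccng1, Bax, Bbc3, Phlda3 and Trp53inp1 did not pass, with log2 differences between -0.20 and 0.36. Across all 13316 genes tested 12.8% passed, 5.99% upward and 6.81% downward, so 1 of 8 is close to the background of the table.

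Cdkn1a lies at chr17:29090976-29100727 on the plus strand (build GRCm38 with GENCODE M21, as for all gene positions below). It was at 76.1, 59.7, 62.9, 52.7 and 60.8 CPM in control livers 1 to 5 and at 24.7, 36.3, 26.6 and 37.3 CPM in fusion livers 6 to 9. Every fusion liver lay below every control liver, a separation that 16.5% of all genes tested showed in one direction or the other. The means were 62.4 ± 8.54 CPM (SD, n = 5) and 31.2 ± 6.49 CPM (SD, n = 4). The fitted log2 difference was -1.0 ± 0.16 (SE; edgeR adjusted p = 0.00267), with a 95% interval from -1.35 to -0.66. Leaving out any single liver gave a log2 difference between -1.10 and -0.89, with edgeR adjusted p-values from 0.00254 to 0.0123. The fall was -1.08 within the 4 livers of high ribosomal share (edgeR adjusted p = 0.0056) and -0.96 within the 5 of low share (edgeR adjusted p = 0.0039). An edgeR interaction test found no difference between these values (0.13, unadjusted p = 0.635, adjusted p = 0.848), and 0.188% of all genes passed that test. Hepatocyte marker sums were 85512 to 132087 CPM in control and 68480 to 120276 CPM in fusion livers, and 1 of the 6 markers fell, the apolipoprotein gene Apoa1 (-0.89, edgeR adjusted p = 0.0382). Fibroblast marker sums were 225 to 413 CPM in control and 188 to 297 CPM in fusion livers, and 2 of the 6 markers fell, the collagen genes Col1a1 (-0.80, edgeR adjusted p = 0.0227) and Col1a2 (-0.57, edgeR adjusted p = 0.0467). The part of these cell types in the fall of Cdkn1a was not tested. An unclassified transcript on the opposite strand overlaps an exon of Cdkn1a, and the use of strand in counting is not given in the sources used here.

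**Figure D1:**
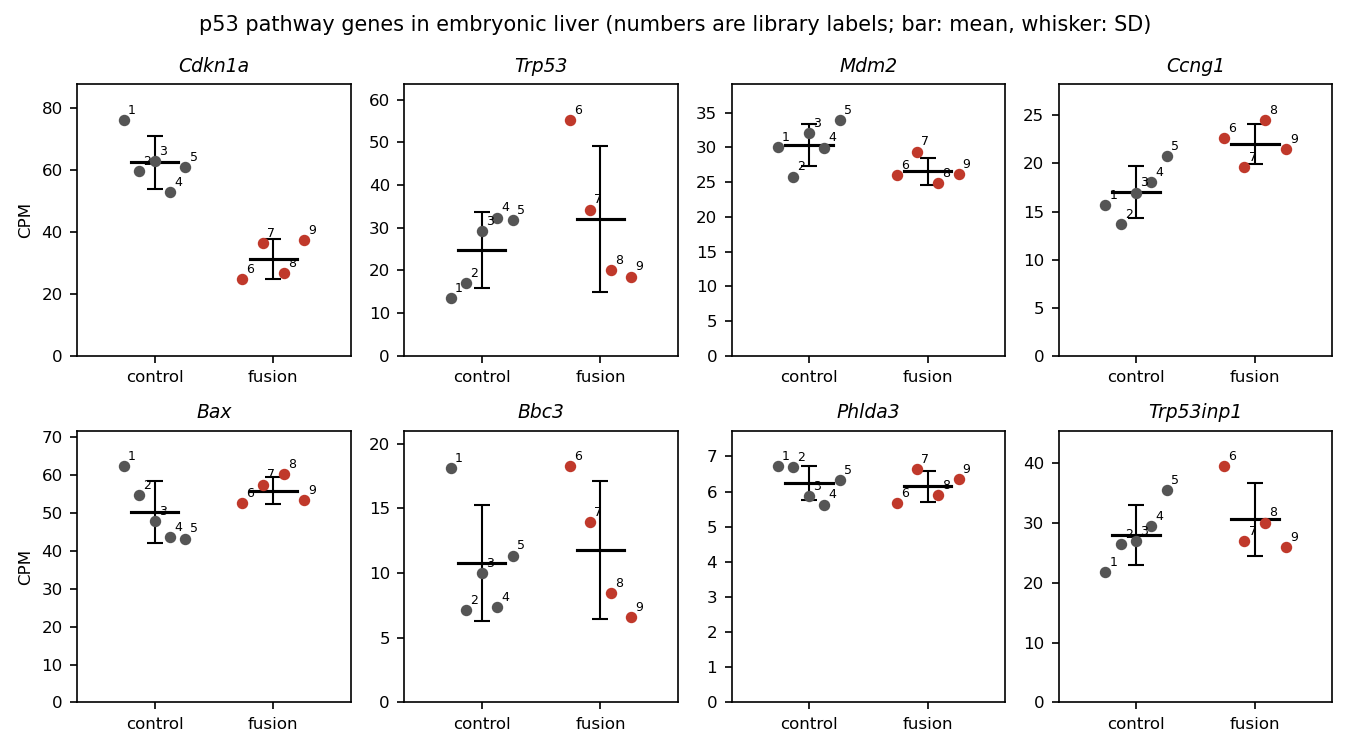
CPM (y axis) of the 8 measured p53 pathway genes in each embryonic liver, by group (x axis); points are libraries with their label number, bars are group means and whiskers SD. Cdkn1a spans 52.7 to 76.1 CPM among controls and 24.7 to 37.3 CPM among fusion livers with no overlap, and the other 7 genes overlap between the groups.

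The regulators of the pathway are described next. Trp53 (chr11:69580359-69591873, plus strand), which has a pseudogene copy, Trp53-ps, was at 13.6, 17.0, 29.2, 32.4 and 31.8 CPM in control livers 1 to 5 and at 55.2, 34.2, 20.1 and 18.5 CPM in fusion livers 6 to 9. Fusion 6 was the highest of all, and the groups overlapped. On the log2 scale the difference was 0.37 ± 0.35 (SE; edgeR adjusted p = 0.515), and without fusion 6 it was -0.029. The 4 livers of high ribosomal share lay at 13.6 to 20.1 CPM and the 5 of low share at 29.2 to 55.2 CPM. Over all livers Trp53 thus separated by that share and not by genotype. Within each share, both fusion livers lay above every control, a pattern whose frequency over all genes is not given here. With genotype in the fit, Trp53 was 1.13 ± 0.14 (SE) higher on the log2 scale in the low-share livers (edgeR adjusted p = 0.000155), as 36.8% of all genes differed by that share in one direction or the other. With the share as a covariate the fusion difference of Trp53 was 0.46 (edgeR adjusted p = 0.0172). Within the high-share livers it was 0.37 (edgeR adjusted p = 0.162) and within the low-share livers 0.54 (edgeR adjusted p = 0.0553). The Xist level, a mark of sex, split the livers in another way. It was high in controls 1 and 2 and fusion 6, 7 and 8, and low in controls 3, 4 and 5 and fusion 9. Within the low-share livers it followed genotype, so genotype and sex cannot be told apart in any low-share value given here. With the Xist class as a covariate the Trp53 difference was 0.56 (edgeR adjusted p = 0.44).

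**Figure D2:**
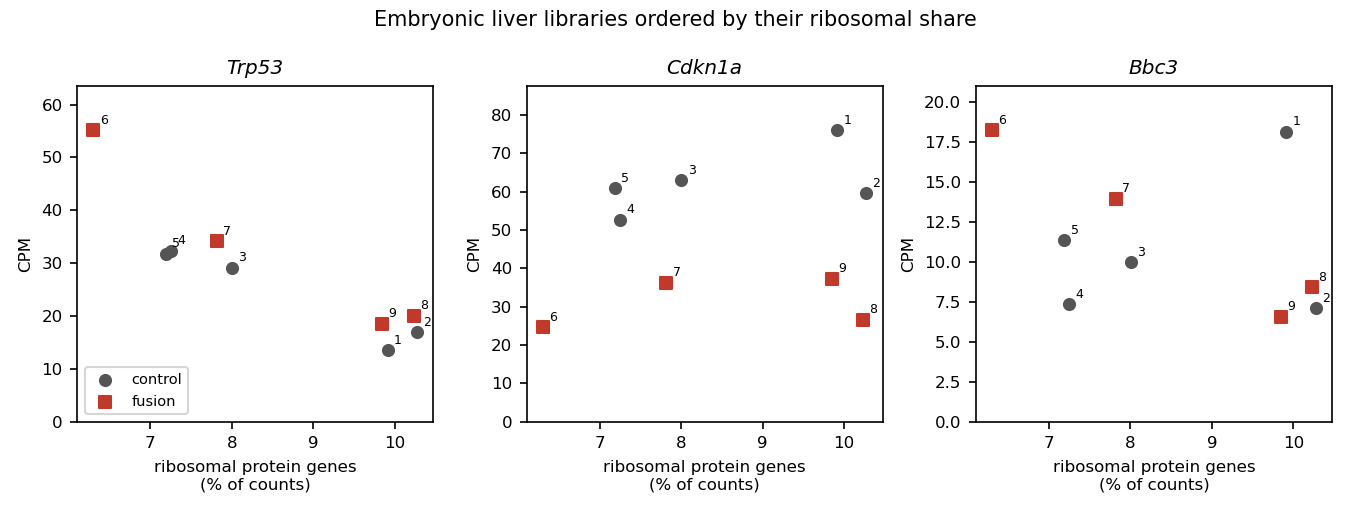
CPM of Trp53, Cdkn1a and Bbc3 (y axes) against the share of counts from ribosomal protein genes in percent (x axis) in the 9 embryonic livers; circles are control and squares fusion libraries with their label number. Trp53 is at 13.6 to 20.1 CPM in the 4 livers of high share and at 29.2 to 55.2 CPM in the 5 of low share, while Cdkn1a is lower in fusion than in control livers on both sides.

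Mdm2 (chr10:117688875-117710758, minus strand), which encodes the ligase that degrades p53 and is itself a p53 target, was at 30.1, 25.8, 32, 30.0 and 33.9 CPM in control and 26.0, 29.4, 24.8 and 26.1 CPM in fusion livers. The groups overlapped only through control 2, and the other 4 controls lay above every fusion liver. Its log2 difference was -0.20 ± 0.11 (SE; edgeR adjusted p = 0.261), with a 95% interval from -0.44 to 0.04. A fall of Mdm2 as deep as that of Cdkn1a thus lay outside its interval.

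Ccng1 (chr11:40748552-40755311, minus strand), the gene of cyclin G1 and a p53 target, was at 15.7, 13.7, 17.0, 18.1 and 20.8 CPM in control and 22.7, 19.6, 24.5 and 21.5 CPM in fusion livers. Fusion 7 was the lone fusion liver below the highest control. The log2 difference of 0.36 ± 0.13 (SE) did not pass (edgeR adjusted p = 0.0956). It passed with the ribosomal share as a covariate (0.38, edgeR adjusted p = 0.0285) and within the high-share livers (0.65, edgeR adjusted p = 0.0241), but not within the low-share livers (0.19, edgeR adjusted p = 0.315). The interaction between the shares (-0.44, unadjusted p = 0.0504, edgeR adjusted p = 0.295) did not pass. Ccng1 and Cdkn1a, both targets with the decamer in the window shown, therefore had differences of opposite sign, of which that of Cdkn1a passed the test.

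The death genes Bax and Bbc3 had similar small differences, and neither passed. Bax (chr7:45461697-45466898, minus strand), whose product permeabilises mitochondria, was at 62.4, 54.8, 47.9, 43.6 and 43.3 CPM in control and 52.6, 57.6, 60.2 and 53.4 CPM in fusion livers. Its log2 difference was 0.15 ± 0.13 (SE; edgeR adjusted p = 0.47), with control 1 above every fusion liver. Another gene model on the same strand, Gm45808, overlaps Bax, so the assignment of its reads is uncertain. Bbc3 (chr7:16308393-16318205, plus strand), the gene of the pro-apoptotic protein PUMA, was at 18.1, 7.11, 10.0, 7.36 and 11.3 CPM in control and 18.2, 13.9, 8.43 and 6.57 CPM in fusion livers. Its highest values were in 1 library of each group, control 1 and fusion 6. The log2 difference was 0.14 ± 0.33 (SE; edgeR adjusted p = 0.817) and turned to -0.15 without fusion 6. Bbc3 was lower in fusion livers of high ribosomal share (-0.82, edgeR adjusted p = 0.106) and higher in those of low share (0.77, edgeR adjusted p = 0.0198). The interaction of 1.60 between these values had an unadjusted p of 0.00261 and an edgeR adjusted p of 0.117, so the difference between the shares did not pass over all genes. In the low-share livers all 3 controls had low and both fusion livers high Xist, so genotype and sex cannot be told apart there.

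Phlda3 (chr1:135766119-135769136, plus strand), which competes with the kinase AKT for the membrane, lay between 5.63 and 6.72 CPM in all 9 livers, with a log2 difference of -0.02 ± 0.13 (SE; edgeR adjusted p = 0.938). Its 95% interval ran from -0.31 to 0.27. Trp53inp1 (chr4:11156431-11174379, plus strand), which promotes p53 activity and autophagy, was at 21.8 to 35.5 CPM in control and 25.9 to 39.4 CPM in fusion livers. Its log2 difference was 0.13 ± 0.16 (SE; edgeR adjusted p = 0.648) and was -0.015 without fusion 6, the liver with the highest value. The median difference over the 8 genes was 0.13, beside -0.01 over all genes tested. It was -0.022 without fusion 6, 0.0096 with the Xist class as a covariate and -0.077 within the high-share livers.

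Among 39 other p53 targets, 5 rose and 2 fell, beside 5.99% of all genes tested that rose and 6.81% that fell. In the arrest and signalling group 3 of 13 rose and none fell, with a median log2 difference of 0.17. Plk3, a stress-responsive polo-like kinase, was at 8.08, 8.23, 15.4, 9.45 and 11.8 CPM in control and 117, 97.6, 87.9 and 48.0 CPM in fusion livers. Its rise of 3.04 ± 0.26 (SE; edgeR adjusted p = 7.78e-05) was the steepest in these lists and is 8.21-fold. Gdf15, a secreted stress cytokine, was at 2.01 to 3.76 CPM in control and 6.23 to 12.9 CPM in fusion livers, a rise of 1.39 (edgeR adjusted p = 0.00595). Ckap2, a spindle protein gene, rose by 0.44, a call that ended without control 1, 3, 4 or 5 or fusion 6, 8 or 9, with edgeR adjusted p-values up to 0.124. It also ended with the Xist class as a covariate (edgeR adjusted p = 0.0887) and within the low-share livers (0.105).

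In the death group of 12, Trp53inp2 rose (0.52) and the desmosomal target Perp fell (-0.49). Both calls rested on single livers: that of Trp53inp2 ended without any one of control 1, 2 or 5 or fusion 6, 7 or 8 (edgeR adjusted p up to 0.0892), and that of Perp without any one of control 3, 4 or 5 or fusion 6 to 9 (edgeR adjusted p up to 0.0914). Perp was at -0.15 within the high-share livers (edgeR adjusted p = 0.515) and -0.70 within the low-share livers (0.00151), and its call ended with the Xist class as a covariate (-0.38, edgeR adjusted p = 0.0704). Trp53inp2 was at 0.86 within the high share (edgeR adjusted p = 0.00668) and 0.30 within the low share (0.071). The interaction between the shares did not pass for Perp (-0.54, unadjusted p = 0.00571, edgeR adjusted p = 0.144) or Trp53inp2 (-0.55, unadjusted p = 0.00978, edgeR adjusted p = 0.172). In the repair and metabolism group of 14, 1 rose and 1 fell. Gls2, a mitochondrial glutaminase of the liver, was at 21.5, 21.6, 38.6, 40.4 and 49.4 CPM in control and 231, 181, 119 and 76.5 CPM in fusion livers. Every fusion liver was above every control, with a log2 difference of 2.14 ± 0.33 (SE; edgeR adjusted p = 0.00254). Ephx1, an epoxide hydrolase of detoxification, was at 28.9 to 41.2 CPM in control and 8.43 to 14.1 CPM in fusion livers, a fall of 1.64 on the log2 scale (edgeR adjusted p = 0.000164). Plk3, Gls2, Gdf15 and Ephx1 kept their calls in each of the 9 fits that left out 1 liver. The targets thus held genes of both directions, as all genes tested did, and Cdkn1a fell beside rises of Plk3, Gdf15 and Gls2.

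The counts below stand beside 5.99% of all genes tested that rose and 6.81% that fell. Of 11 p53 regulators and damage kinases tested, 1 rose: Cop1, a ubiquitin ligase that acts on p53, with a mean of 25.6 CPM in control and 36.7 CPM in fusion livers (log2 difference 0.52, edgeR adjusted p = 0.0113). Of 5 other CDK inhibitor genes, 1 rose, the phosphatase gene Cdkn3 (0.35, edgeR adjusted p = 0.038), whose call ended in 7 of the 9 fits without 1 liver, those without control 1, 2, 3 or 5 or fusion 6, 7 or 8 (edgeR adjusted p up to 0.0921). That call also ended with the Xist class as a covariate (edgeR adjusted p = 0.0755) and within either share (0.0931 high, 0.0518 low). Among 30 proliferation genes that fall when cells leave the cycle, 5 rose and none fell, and the median was 0.21. Within the high-share livers 14 of the 30 were higher, 5 rose and 2 fell, and the median was -0.0038. Within the low-share livers, where the Xist class followed genotype, 28 were higher and 7 rose, with a median of 0.27. With the Xist class as a covariate 1 rose, Mcm4, and the median was 0.13. Of all genes, 2589 passed within the high share, 2950 within the low share and 1284 with the Xist class. The named risers were the replication gene Mcm4 (0.52, edgeR adjusted p = 0.0165) and the mitotic or S-phase genes Bub1 (0.59), Ccnb1 (0.51) and Ccne2 (0.67). The fifth was the licensing gene Cdc6 (0.44, edgeR adjusted p = 0.0452), named here after its value was seen. The calls of Bub1 and Ccnb1 ended without control 1 or 3 or fusion 6, 7 or 8 and that of Ccne2 also without control 2 or 5, with edgeR adjusted p-values up to 0.0946. With the Xist class the edgeR adjusted p-values were 0.0584 for Bub1, 0.0669 for Ccnb1 and 0.0736 for Ccne2, and within the low share they were 0.0594 for Mcm4 and 0.0672 for Ccne2. Mki67, the standard proliferation marker, was at 454 to 624 CPM in control and 585 to 663 CPM in fusion livers.

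Senescence genes showed few calls in the embryos, where 5.99% of all genes tested rose and 6.81% fell. Of 10 nuclear and lysosomal genes 1 rose, Ezh2, a histone methyltransferase gene that is known to decline in senescence (0.44, edgeR adjusted p = 0.0163), a call that ended within the high-share livers (edgeR adjusted p = 0.0737). Lmnb1 was at 58.3 to 76.7 CPM in control and 53.9 to 99.5 CPM in fusion livers and did not pass. Of 26 secreted factors none rose and 2 fell. Igfbp6, an insulin-like growth factor binding protein gene, averaged 6.47 ± 1.60 CPM in control (SD, n = 5) and 3.10 ± 0.52 CPM in fusion livers (SD, n = 4). Its log2 difference was -1.06 (edgeR adjusted p = 0.00904). Mmp9, a matrix protease gene of myeloid cells, fell by 0.44 on the log2 scale, and its call ended without control 2 or 3 or fusion 6, 7 or 8 (edgeR adjusted p up to 0.0771). Macrophage marker sums were 709 to 806 CPM in control and 674, 731, 600 and 643 CPM in fusion livers, of which 3 lay below every control. None of the 6 macrophage markers passed, and their part in the fall of Mmp9 was not tested.

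The second comparison asks whether the p53 pathway or other signs of arrest or senescence moved in tumours after palbociclib. None of the 10 genes passed the threshold, a limma adjusted p under 0.05 on log2(CPM + 1), and none had an unadjusted p under 0.05. Among all 12829 genes tested 0% passed, 586 (4.57%) had an unadjusted p under 0.05, edgeR on the recovered reads called 0 and DESeq2 called 8, none of them a member. No member separated the groups, as 0.935% of all genes did. All tumour differences below are on the log2(CPM + 1) scale, which understates low genes. The median over all genes was 0.14, with 68.8% of genes higher after palbociclib, and trimmed mean (TMM) scaling moved it to 0.01. A member's difference is therefore best read against 0.14. The median over the members was 0.12, and 6 of 10 were higher, or 3 of 10 after TMM scaling, with a median of -0.027. Without vehicle 5 the median over the members was -0.015, and the median of all genes in that fit is not given here.

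**Figure D3:**
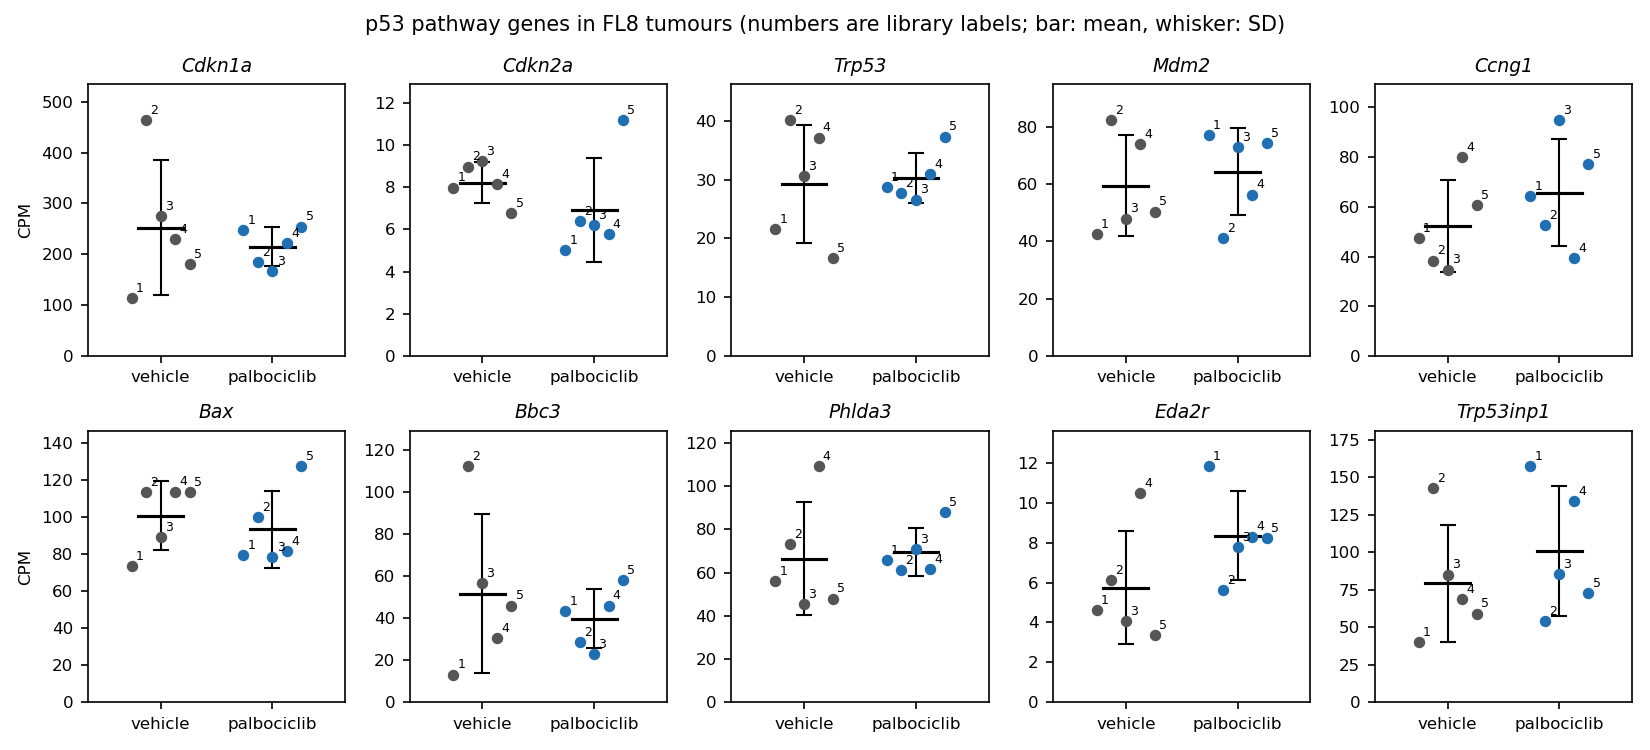
CPM (y axis) of the 10 p53 pathway genes in each FL8 tumour, by treatment (x axis); points are libraries with their label number, bars are group means and whiskers SD. The groups overlap for every gene, and vehicle 2 is the highest tumour for Cdkn1a at 464 CPM and for Bbc3 at 112 CPM.

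Cdkn1a was at 113, 464, 275, 229 and 181 CPM in vehicle tumours 1 to 5 and at 247, 184, 167, 222 and 254 CPM in palbociclib tumours 1 to 5. In these values all palbociclib tumours lay within the range of the vehicle tumours, from vehicle 1 at the lowest to vehicle 2 at the highest. With mitochondrial genes left out of the total, vehicle 2 and palbociclib 3 lay farthest from the median of Cdkn1a, so that range partly reflects vehicle 1. CPM are as deposited, so the 46.6% mitochondrial reads of vehicle 1 lower its value. The means were 252 ± 133 CPM and 215 ± 38.4 CPM (SD, n = 5 each). On the log2 scale the difference was -0.10 ± 0.32 (SE; limma adjusted p = 0.979), with a 95% interval from -0.76 to 0.57, so the spread allowed a change in either direction within those bounds. After TMM scaling or without mitochondrial genes the difference was -0.24. On the recovered reads it was -0.30 in edgeR, -0.315 in DESeq2 and -0.32 in limma-voom, and Cdkn1a passed in none of these fits. Without vehicle 2 the difference was 0.16, and without vehicle 1 it was -0.35. Without both doubtful vehicle libraries, 1 and 5, it was -0.54 (limma unadjusted p = 0.0313, adjusted p = 0.55).

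Cdkn2a (chr4:89274471-89294653, minus strand) was at 7.97, 8.97, 9.22, 8.16 and 6.77 CPM in vehicle and 5.02, 6.38, 6.20, 5.77 and 11.2 CPM in palbociclib tumours. Palbociclib tumours 1 to 4 were below every vehicle tumour, and palbociclib 5 was above them all. Its log2 difference was -0.26 ± 0.28 (SE; limma adjusted p = 0.953), with a 95% interval from -0.86 to 0.34. A count per gene does not separate the transcripts of p16 and ARF. The other CDK inhibitors had a median of 0.39 over 6 genes, of which 4 were higher after palbociclib. Of the 6 genes, 3 had an unadjusted p under 0.05, all higher after palbociclib, and none passed after adjustment. After TMM scaling, without mitochondrial genes, and in edgeR, DESeq2 and limma-voom the number was 1, with medians from 0.24 to 0.26. Cdkn2c, which encodes p18, was at 8.21, 9.73, 8.79, 8.72 and 11.5 CPM in vehicle and 13.7, 17.2, 17.5, 12.7 and 13.6 CPM in palbociclib tumours, without overlap (0.62, limma adjusted p = 0.953). Cdkn2d, which encodes p19 of the same family, was at 0 to 5.64 CPM in vehicle and 4.99 to 11.4 CPM in palbociclib tumours (1.27, limma adjusted p = 0.953), and its 0 was in vehicle 5, where 3 reads are worth 1.01 CPM. Cdkn3 differed by 1.12 with overlap. Cdkn2b was at 28.1, 66.5, 35, 68.2 and 75.4 CPM in vehicle and 56.6, 35.4, 27.7, 38.2 and 48.9 CPM in palbociclib tumours. Cdkn1b ranged from 20.6 to 49.1 CPM in vehicle and from 27.4 to 45.2 CPM in palbociclib tumours.

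Trp53 was at 21.6, 40.1, 30.5, 37.1 and 16.6 CPM in vehicle and 28.7, 27.7, 26.6, 30.9 and 37.3 CPM in palbociclib tumours. The palbociclib tumours lay inside the vehicle range, whose lowest library was vehicle 5. The fitted log2 difference was 0.11 ± 0.27 (SE; limma adjusted p = 0.97). It was -0.068 without vehicle 5 and -0.034 after TMM scaling. Mdm2 was at 42.5, 82.4, 47.9, 73.9 and 50.4 CPM in vehicle and 77.1, 41.2, 73, 56.4 and 74.3 CPM in palbociclib tumours. Low and high tumours occurred in both groups, and the log2 difference was 0.13 ± 0.26 (SE; limma adjusted p = 0.966), or -0.021 after TMM scaling.

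The most positive member was Eda2r (chrX:97333840-97377216, minus strand), a tumour necrosis factor receptor family gene and p53 target, at 4.61, 6.12, 4.08, 10.5 and 3.38 CPM in vehicle and 11.8, 5.63, 7.79, 8.30 and 8.21 CPM in palbociclib tumours. All palbociclib tumours but palbociclib 2 exceeded all vehicle tumours but vehicle 4. The log2 difference was 0.53 ± 0.32 (SE; limma adjusted p = 0.953), and its 95% interval ran from -0.15 to 1.21. It was 0.74 without vehicle 4 (limma unadjusted p = 0.0296, adjusted p = 0.703) and 0.64 in limma-voom with quality weights (unadjusted p = 0.0397, adjusted p = 0.537). Vehicle 5 gave only 10 reads of Eda2r.

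Ccng1 was at 47.5, 38.3, 34.7, 80.0 and 60.6 CPM in vehicle and 64.3, 52.7, 95, 39.3 and 77 CPM in palbociclib tumours. Vehicle 4 and palbociclib 4 ran against the group means, and the log2 difference was 0.33 ± 0.29 (SE; limma adjusted p = 0.953). Trp53inp1 was at 40.0, 143, 85.1, 68.9 and 59.2 CPM in vehicle and 157, 54.2, 85.5, 134 and 72.7 CPM in palbociclib tumours. The highest 2 of these were palbociclib tumour 1 and vehicle 2, and the log2 difference was 0.36 ± 0.34 (SE; limma adjusted p = 0.953). Phlda3 ranged from 45.6 to 109 CPM in vehicle and from 61.3 to 88.1 CPM in palbociclib tumours, with a log2 difference of 0.13 ± 0.26 (SE; limma adjusted p = 0.966) that was -0.018 after TMM scaling.

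The death genes Bax and Bbc3 were both slightly lower in mean after palbociclib, and neither passed. Bax was at 73.4, 113, 89.3, 114 and 114 CPM in vehicle and 79.7, 99.8, 78.5, 81.5 and 127 CPM in palbociclib tumours, a log2 difference of -0.11 ± 0.23 (SE; limma adjusted p = 0.966). Bbc3 was at 13.2, 112, 56.9, 30.7 and 46.0 CPM in vehicle and 43.5, 28.6, 23.1, 46.1 and 58.1 CPM in palbociclib tumours. Vehicle 1 and vehicle 2 were its extremes, an 8.52-fold range within 1 group in CPM as deposited. The mitochondrial reads of vehicle 1 lower its value and widen that range. Its log2 difference was -0.13 ± 0.43 (SE; limma adjusted p = 0.979), and it was 0.22 without vehicle 2 and 0.043 without palbociclib 3.

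**Figure D4:**
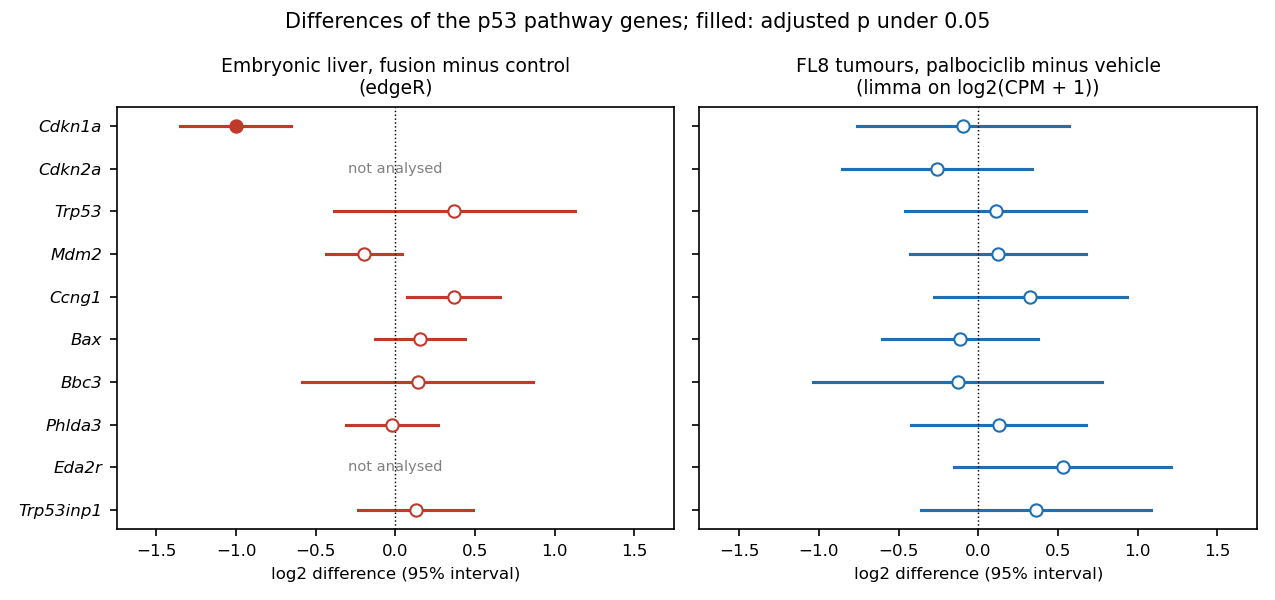
Log2 differences (x axes) of the p53 pathway genes (y axis) in embryonic liver, fusion minus control, and in FL8 tumours, palbociclib minus vehicle; lines are 95% intervals and filled points passed the adjusted threshold. The interval of Cdkn1a in the embryos runs from -1.35 to -0.66, and every tumour interval includes 0.

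Proliferation genes, which fall when cells arrest, were mostly higher in mean after palbociclib. Of 29 tested, 27 were higher and 16 had an unadjusted p under 0.05, all of them higher, but none passed after adjustment. Their median was 0.86, beside 0.14 over all genes, and it was 0.72 after TMM scaling, beside 0.01. Top2a, which encodes the topoisomerase of dividing cells, was at 13.2, 21.7, 21.6, 8.52 and 16.9 CPM in vehicle and 39.0, 44.5, 56.9, 26.3 and 26.1 CPM in palbociclib tumours. The groups did not overlap, and the log2 difference was 1.19 ± 0.31 (SE; limma unadjusted p = 0.00113, adjusted p = 0.953). Ccnb1, the mitotic cyclin B1 gene, went from 11.2 ± 7.80 to 30.0 ± 9.79 CPM (SD, n = 5 each), with a difference of 1.52 ± 0.39 (SE; limma adjusted p = 0.953) and an overlap through vehicle 3 and vehicle 5. Aurkb, a mitotic kinase gene, went from 5.88 ± 2.62 to 13.7 ± 1.38 CPM (SD, n = 5 each) without overlap (1.19 ± 0.31, SE; limma adjusted p = 0.953). Mki67 was at 24.2, 49.1, 65.1, 12.5 and 56.2 CPM in vehicle and 54.4, 57.8, 99.5, 45.6 and 45.9 CPM in palbociclib tumours, so that overlap was wide. Vehicle 1 and vehicle 4 were its lowest tumours, and the mitochondrial reads of vehicle 1 lower its value. Without vehicle 1 and vehicle 5 the median of the proliferation genes was 0.86, beside -0.05 over all genes. Haematopoietic marker sums, given above, were lower in all palbociclib tumours than in vehicle 1 to 4, and their part in these differences was not tested.

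Senescence genes gave no uniform picture in the tumours. Over 10 nuclear and lysosomal genes the median was 0.10, beside 0.14 over all genes (-0.042 beside 0.01 after TMM scaling), and 1 had an unadjusted p under 0.05: Hmgb2, a chromatin protein gene known to fall in senescence, which was higher after palbociclib (0.73, limma adjusted p = 0.953). Lmnb1 was at 8.12, 7.83, 8.62, 6.22 and 6.09 CPM in vehicle and 9.50, 8.88, 14.5, 6.44 and 10.2 CPM in palbociclib tumours, with overlapping groups (0.35 ± 0.28, SE; limma adjusted p = 0.953). Ezh2 differed by 0.70. Over 28 secreted factors the median was -0.21, and 10 were higher. The median was -0.031 without palbociclib 1, -0.018 without palbociclib 3, -0.075 without vehicle 1 and -0.69 in edgeR on the recovered reads (30 factors, 5 higher). Its size thus moved with single tumours and with the method. The medians of all genes in those fits are not given here, so a shift of all genes is not set apart. Areg, an epidermal growth factor receptor ligand gene, was at 10.6, 50.4, 22.8, 20.8 and 10.8 CPM in vehicle and 12.8, 5.09, 4.44, 5.35 and 15.8 CPM in palbociclib tumours, with overlap (-1.25 ± 0.43, SE; limma adjusted p = 0.953). Il1b, the interleukin 1 beta gene, was at 116 CPM in vehicle 1, the tumour with the highest macrophage sum, and at 2.71 to 27.3 CPM in the other vehicle tumours. It was at 0.74 to 6.36 CPM in palbociclib tumours, a difference of -1.63 ± 0.70 (SE; limma adjusted p = 0.953). Macrophage sums were 82.6 to 1777 CPM in vehicle and 109 to 369 CPM in palbociclib tumours, and their part in Il1b was not tested. Igfbp3 differed by -0.69.

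**Figure D5:**
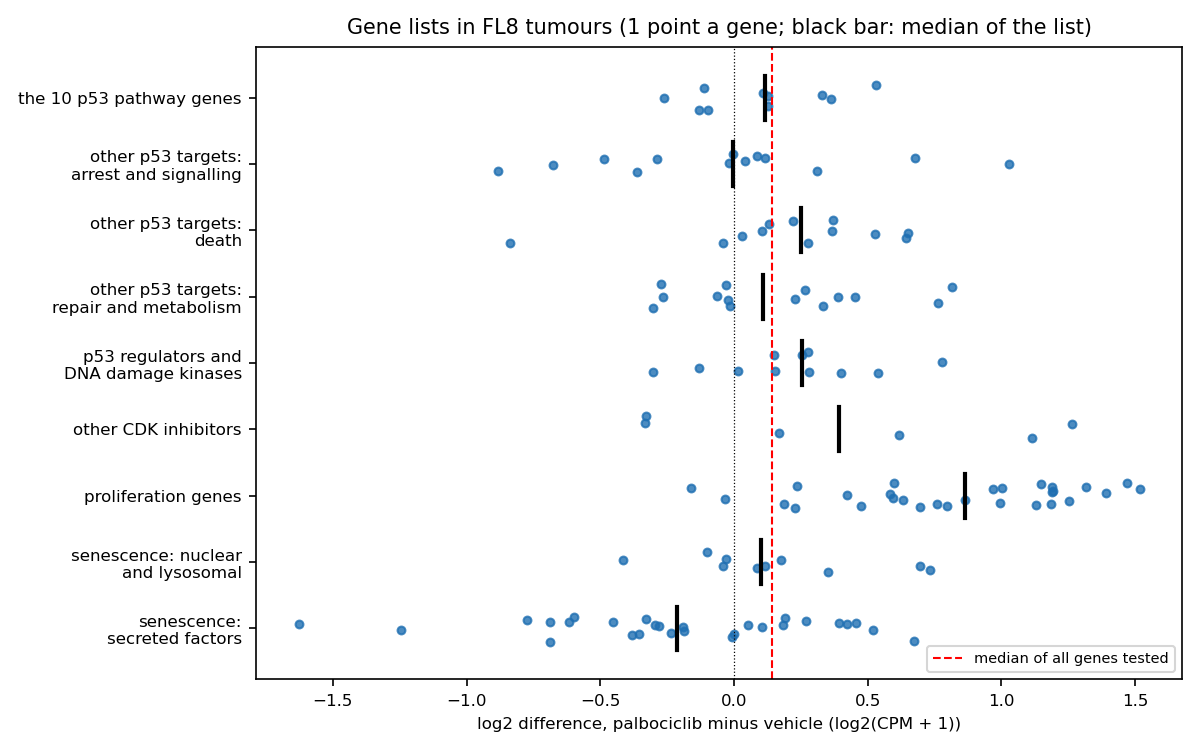
Log2 differences, palbociclib minus vehicle (x axis), of each tested gene in 9 lists (y axis); each point is a gene, black bars are list medians and the dashed line is the median of all genes tested at 0.14. Proliferation genes have a median of 0.86 and secreted senescence factors one of -0.21, while the 10 p53 pathway genes have a median of 0.12.

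The other p53 targets lay on both sides of the median of all genes, and none of the 39 passed after adjustment. Their medians were 0.00 in the arrest and signalling group, 0.25 in the death group and 0.11 in the repair and metabolism group. After TMM scaling the last was -0.0026, and the first ran from -0.21 to 0.17 with 1 tumour left out. Gtse1, a p53 target list member that is itself expressed in G2 and mitosis, went from 6.44 ± 2.78 to 13.7 ± 3.53 CPM (SD, n = 5 each) without overlap (1.03, limma adjusted p = 0.953). Trp53inp2, an autophagy gene, went from 125 ± 23.5 to 195 ± 23.1 CPM (SD, n = 5 each), also without overlap (0.64, limma adjusted p = 0.953). Rps27l, a ribosomal protein paralogue, differed by 0.76, and Atr, a damage kinase gene, by 0.78, both with overlap. Gdf15 and Ckap2 differed by -0.88 and 0.68, and the death genes Pmaip1 and Perp by -0.84 and 0.65. Gls2 and Ddb2 differed by 0.82 and 0.45. The kinase genes Atm and Chek1 differed by 0.40 and 0.54.

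Levels of different members were compared per length, as CPM per kilobase of annotated exon. In control livers Bax stood highest at 32.0 ± 5.17, followed by Cdkn1a at 17.6 ± 2.40 (SD, n = 5), and neither range overlapped the next. Trp53, Mdm2, Bbc3, Ccng1, Trp53inp1 and Phlda3 followed between 6.13 and 4.01, each overlapping its neighbour. In fusion livers Cdkn1a was still in the second place but at 8.78 ± 1.83 (SD, n = 4) and overlapped Trp53. In vehicle tumours Cdkn1a led in mean at 71.1 ± 37.4, then Bax at 63.9 ± 11.8 and Phlda3 at 42.6 ± 16.8 (SD, n = 5), with overlapping ranges. Cdkn2a at 7.01 ± 0.82 and Eda2r at 0.97 ± 0.48 were the lowest, and Eda2r did not overlap any other. Palbociclib tumours had the same order. The tables were normalised separately, so levels were not compared across the experiments.

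Members also differed in how much they varied within a group. Across vehicle tumours the highest value was 8.52 times the lowest for Bbc3, 4.11 times for Cdkn1a and 3.56 times for Trp53inp1, but 1.36 times for Cdkn2a and 1.55 times for Bax. Across palbociclib tumours these ratios were 2.52, 1.52, 2.90, 2.23 and 1.62. All these ratios use CPM as deposited. Vehicle 1, at 46.6% mitochondrial reads, gave the lowest vehicle value of Bbc3, Cdkn1a, Trp53inp1 and Bax, which those reads lower. Over the 10 tumours, with mitochondrial genes left out of the total, Cdkn1a and Bbc3 rose together on the log2 scale (Pearson r = 0.86, permutation p = 0.00237, adjusted over 9 relations p = 0.0213; Spearman rho = 0.76, permutation p = 0.0152, adjusted p = 0.137). Leaving out vehicle 2 and palbociclib 3, the extremes of Cdkn1a, gave r = 0.57, so the relation rested in part on these 2 tumours. The other 8 relations with Cdkn1a did not pass, among them those of Trp53inp1 (r = 0.57, permutation p = 0.0792, adjusted p = 0.252), Trp53 (r = 0.55, permutation p = 0.112, adjusted p = 0.252) and Ccng1 (r = -0.54, permutation p = 0.0956, adjusted p = 0.252).

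The genes whose pattern was most like that of Cdkn1a were taken by Pearson r of log2(CPM + 1) over all libraries of an experiment. In the 9 livers, among 12551 genes, they were Lrg1 (r = 0.99), Adm2, Rassf7, Aldoc and Prpsap1 (r = 0.98 each). All of them were lower in every fusion than in every control liver. Their choice by likeness to Cdkn1a, which separates the groups, favours this, so it is no separate result. Of all genes tested, 16.5% separated the groups in one direction or the other. Lrg1, an acute-phase glycoprotein gene, was at 49.4 to 105 CPM in control and 12.2 to 28.5 CPM in fusion livers. In the 10 tumours, among 12829 genes, they were Chd4 and Nup188 (r = 0.98 each), then Spty2d1, Clasrp and Zbtb10 (r = 0.97 each). Clasrp ranged from 14.9 to 76.1 CPM in vehicle and from 25.0 to 49.6 CPM in palbociclib tumours. In these CPM as deposited its extremes lay in the vehicle group, as for Cdkn1a. The mitochondrial reads of vehicle 1 lower Cdkn1a and these genes alike in that tumour. The part of those reads in the likeness was not tested.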

How the data were processed

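For the 9 livers the authors deposited unnormalised counts by symbol, from poly-A RNA aligned to mm10 with STAR 2.5.1b per the submitters' processing notes, which also name DESeq2. The tumour files hold CPM deposited by the authors for Ensembl genes of 10 tumours, and the notes name mm10, cutadapt 2.10, HISAT2, featureCounts, DESeq2 and R 4.1.2. Strand use, annotation and the treatment of reads shared by several genes are not given in the sources used here. GENCODE M21 gave symbols to 17469 of 17606 tumour IDs. In each tumour file 100% of the values were whole multiples of what 1 read is worth (tolerance 0.01), so reads were recovered.

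Groups came from the titles. Embryos were tested with edgeR 4.0.16 (quasi-likelihood, TMM, filterByExpr) and tumours with limma 3.58.1 (trend) on log2(CPM + 1) at a mean of at least 1 CPM, under R 4.3.3, with Benjamini-Hochberg adjustment over all genes tested. Embryo CPM are TMM-scaled and tumour CPM are as deposited. The fits were also run on simulated data, and the outcome, including how many changed genes the tumour fit recovers, is not given here. All members were named, and from each list the genes past the threshold, at most 4 per direction, or else the 3 of smallest p. Mki67, Lmnb1 in the livers, Cdc6, Cdkn1b and Cdkn2b in the tumours and the marker genes lie outside that rule and were added after their values were seen. For Cdkn1a, the 5 genes of highest Pearson r were named. The members and lists were chosen with earlier results of these data known. Lists are described by counts and medians without a test.

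A count of 3 is worth 0.0658 to 0.392 CPM in the livers and 0.0695 to 1.01 CPM in the tumours, which covers counting error only. No libraries of a group agreed within counting noise (lowest chi-square per degree of freedom 13.1). Alternatives were other scaling, filters and pseudocounts (0.1), DESeq2 1.42.0, limma-voom, covariates, the replicate block and leaving out libraries. Sequences came from the RefSeq promoter table (GRCm38.p6).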

Additional observations from a re-analysis of the deposited data

Results flagged for a closer look

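Cdkn2a in palbociclib tumour 5 was at 11.2 CPM, while the other 4 palbociclib tumours lay at 5.02 to 6.38 CPM. Its gap to the nearest tumour was 0.779 of the range of the group. Among the 36 groups of members and libraries examined in this way it was the lone value so far apart, and about 1 in 20 groups, or 1.8 of 36, would be marked by chance. Without it the other palbociclib tumours all lay below the vehicle tumours, the nearest of which was vehicle 5 at 6.77 CPM from 20 reads. The share of all genes that separate without palbociclib 5 is not given here. The fitted log2 difference of Cdkn2a was -0.43 (limma adjusted p = 0.995) without that tumour, beside -0.26 with it.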

How the results depend on the processing

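The fall of Cdkn1a in the livers kept its direction and call under every alternative run. The count of genes past the threshold in the livers (1704) was 4345 with the ribosomal share as a covariate, 2589 within the high-share and 2950 within the low-share livers (both chosen after seeing the data), and 969 (without control 3) to 1581 with 1 liver left out, falling by more than 1.5 times also without fusion 7 (1107) and fusion 8 (987). The members past it were 3, 2 and 2 in the former 3 fits. DESeq2 called 8 tumour genes. Small differences changed sign. In the livers Bax was -0.038 and Bbc3 -0.82 within the high share, Bbc3 -0.14 with the Xist class, and Phlda3 0.037 within the low share. With 1 liver left out, Bbc3 ran from -0.15 to 0.41, Phlda3 from -0.061 to 0.030, Trp53 from -0.029 to 0.56 and Trp53inp1 from -0.015 to 0.24. In the tumours, TMM scaling, no mitochondrial genes, edgeR, DESeq2 and leaving out vehicle 1 and 5 gave -0.021, -0.019, -0.021, -0.035 and -0.079 for Mdm2, -0.018, -0.017, -0.084, -0.096 and -0.053 for Phlda3, and -0.034, -0.033, -0.084, -0.10 and -0.24 for Trp53. Limma-voom gave -0.11 for Trp53 and -0.046 for Atm, and Trp53inp1 was -0.012 without vehicle 1 and 5. With 1 tumour left out, Bbc3 ran from -0.53 to 0.22, Cdkn1a from -0.35 to 0.16 and Trp53 from -0.068 to 0.24. TMM scaling lowered the tumour difference of every member, for example Bax from -0.11 to -0.26, and the median of all genes as well. The cause of the sign changes was not tested. Tumours with the same number did not deviate together (r from -0.32 to 0.00), so the numbers are not taken as pairs. With a replicate block the count of members past the threshold was 0, and Eda2r differed by 0.53. Depth limits Eda2r and Cdkn2a in vehicle 5, at 10 and 20 reads.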
